A study of Homo sapiens with 12 samples.

Results

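The genes described here are 39 protein-coding genes of cholesterol and fatty acid metabolism, listed by name for their place in sterol synthesis, SREBP control, sterol transport and fatty acid synthesis, with earlier results of these data known. They were examined for clusters, the stretches of RNA that crosslinked to a protein in PAR-CLIP. A cluster belonged to a gene when its midpoint lay within the gene on the same strand in GENCODE release 44. Of 102250 clusters in 12 libraries, 72014 lay in the 20033 protein-coding genes and 649 in the 39 genes, of which 522 were exonic.

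All libraries came from wildtype HepG2, a human liver cancer cell line, labelled for 14 h with the photoreactive nucleoside 4-thiouridine (4SU) and crosslinked with 365 nm UV light before RNase T1 digestion and precipitation of the protein. The study examined IGF2BP1, IGF2BP2 and IGF2BP3 as readers of internal N7-methylguanosine (m7G) in mRNA, and METTL1 and WDR4 as the complex that writes this mark. Each protein had 2 libraries except IGF2BP3, which had 4, of which 2 carried the label bio2. In all, 8 IGF2BP libraries were set against 4 METTL1 and WDR4 libraries. By the methods, separate plates of cells were seeded for the replicates, and the p-values measure the spread between these libraries, which come from the same cell line. Neither an input control nor an RNA level was measured in these files, so a gene without a cluster cannot be told apart from a gene with little RNA.

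The libraries held 4581 to 15701 clusters, with IGF2BP2 replicate 1 the smallest and both IGF2BP1 libraries the largest. Clusters were narrower in the bio2 libraries, with medians of 34 nt and 35 nt, than in the others, with medians of 38 nt to 43 nt. The files list called intervals without read numbers, so the depth behind a cluster was unknown. All 7 hepatocyte genes examined (ALB, AFP, APOA2, APOH, FGB, TF and HNF4A) carried an exonic cluster in some library, against 1 of 4 genes of blood, endothelial and connective tissue cells (CD68, in IGF2BP libraries alone). Over all protein-coding genes this share was 31.0%. The 25% of the 4 genes of other cells lies near it, so their count says nothing on whether such cells were absent.

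Hepatocytes make cholesterol from acetyl-CoA through mevalonate, squalene and a series of sterols, and make fatty acids from the same precursor through ACLY, ACACA and FASN before elongases and desaturases reshape them. SREBF1 and SREBF2 encode the membrane-bound transcription factors that switch these pathways on, SCAP escorts them when sterols are scarce, and the INSIG proteins hold SCAP back when sterols are plentiful. IGF2BP proteins are cytoplasmic RNA-binding proteins that affect mRNA stability and translation, and the METTL1 and WDR4 complex is best known for methylating tRNA.

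The sites shared by the most libraries show what the clusters in these genes looked like. For 11 of the 12 genes with exonic clusters in the most libraries (the site of FDFT1 is not shown), 30 bases at the most widely shared site are printed. They are given 5′ to 3′ on the strand of the mRNA, from the hg38 genome and with T for U. The 30 bases do not always lie around the middle of the site, as for SCD and FASN. Capitals mark CAU followed by A, C or U (CAUA, CAUC or CAUU, written CATA, CATC and CATT here, searched on the strand of the mRNA), a short motif associated with IGF2BP proteins. These matches are descriptions and say nothing on which base was crosslinked.
SCD, 3′ UTR, 12 libraries: attatttcttctcttatcctctctctcttc
SC5D, 3′ UTR, 10 libraries: tattcctcctcttctcccctcacttttccc
FADS1, 3′ UTR, 10 libraries: aattcacctcttcttttcacctctttaacc
FADS2, 3′ UTR, 10 libraries: cctttctcctctcctttttctcttcaCATC
LRP1, 3′ UTR, 10 libraries: gtattatttctcCATCccctccctgcctgc
SREBF2, coding sequence, 10 libraries: ggtcaCATTaccttccttctctccctcggc
ACSL3, 3′ UTR, 9 libraries: ctcCATTcctCATAttaaactattacttct
ABCA1, 3′ UTR, 7 libraries: cttaatctcacttCATCaatcaaatatttt
ELOVL6, 3′ UTR, 7 libraries: acccCATTccctctttatctatcaactcta
FASN, coding sequence, 6 libraries: acgacgttgcccagggccagtgggatcccg
MSMO1, coding sequence, 6 libraries: tgatattcctctcaaccctttaaatctgat

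The sites of SCD, SC5D, FADS1, FADS2 and LRP1, which were seen with METTL1 and WDR4 as well as with IGF2BP proteins, are runs of C and U with few G. This did not hold for all sites seen with METTL1 or WDR4: the FASN site, present in both METTL1 libraries, is rich in G, and the MSMO1 site, present in 1 METTL1 and 1 WDR4 library, is no such run. Those of ACSL3, ABCA1 and ELOVL6 were seen in 1, in no and in no METTL1 or WDR4 library, respectively, and have the motif within the 30 bases. The motif did not set these sites apart. It also lies within the 30 bases of FADS2 and LRP1, seen in all METTL1 and WDR4 libraries, and of SREBF2, seen in both METTL1 libraries. In hg38 the sites are, in the same order, chr10:100361120-100361182, chr11:121308455-121308512, chr11:61801415-61801467, chr11:61865817-61865877, chr12:57212725-57212770, chr22:41867013-41867078, chr2:222941737-222941778, chr9:104783023-104783060, chr4:110051074-110051104, chr17:82085665-82085736 and chr4:165341759-165341784. FADS1, ABCA1, ELOVL6 and FASN are encoded on the minus strand and the others on the plus strand.

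The first question was which of the genes carried clusters. In any of the 12 libraries, 29 of the 39 genes carried an exonic cluster, or 74.4%, against 31.0% of all protein-coding genes. Clusters were found in at least 3 libraries for 23 genes (59.0% against 18.8% of coding genes), and in all 12 libraries for 6 genes (15.4% against 1.12%). These 6 were SCD, FASN, SC5D, FADS1, FADS2 and LRP1. Another 3 genes, ACAT2, FDPS and INSIG2, had clusters in introns alone, and 7 had none: HMGCS1, PMVK, MVD, INSIG1, SOAT2, ACSL1 and LPIN1. The mRNAs of the 39 genes were also longer, with a median of 4254 nt against 2885 nt for all coding genes, and a median 3′ UTR of 1548 nt against 1019 nt. Since the genes were listed with earlier results known, these shares describe the genes and are no independent evidence of an excess. How far RNA length or level accounts for the shares was not tested.

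Per library, between 13 and 24 of the 39 genes carried an exonic cluster with IGF2BP proteins (33.3% to 61.5%), and between 12 and 14 with METTL1 and WDR4 (30.8% to 35.9%). The share over all coding genes ran from 7.65% to 19.9% and from 7.74% to 9.53%, respectively. Dividing the first share by the second gave a ratio of 3.96 ± 0.53 (SD, n = 8) for IGF2BP libraries and 3.84 ± 0.259 (SD, n = 4) for METTL1 and WDR4 libraries. The ratios differed by 0.121, less than the libraries of a group differed among themselves (exact permutation test, two-sided, 495 splits, p = 0.675). The share of coding-gene clusters that fell in the 39 genes was 0.952% ± 0.0932 (SD, n = 8) and 0.802% ± 0.0298 (SD, n = 4), and the ranges of 0.817% to 1.08% and 0.774% to 0.830% overlapped. This difference of 0.151 percentage points passed the exact permutation test (p = 0.0162, adjusted p = 0.0269 over 5 tests), but it rested in part on 1 gene: without the SCD clusters it was 0.136 points (exact permutation p = 0.0505). With clusters whose central 20 nt occur once in the genome it was 0.0904 points (exact permutation p = 0.293).

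**Figure D1:**
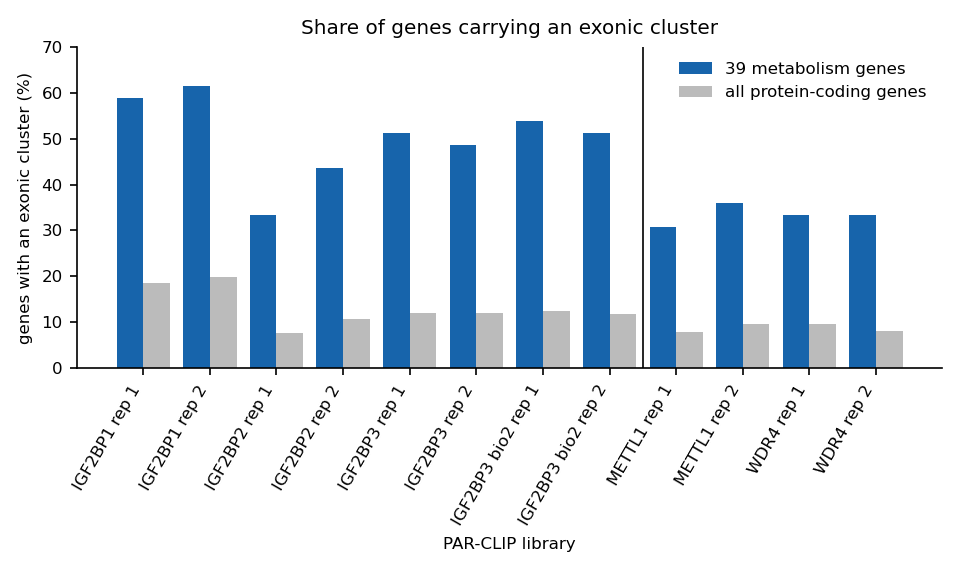
Bars give the percentage of genes with at least 1 exonic cluster in each PAR-CLIP library, for the 39 metabolism genes and for all 20033 protein-coding genes. In each of the 12 libraries the bar of the metabolism genes, at 30.8% to 61.5%, stands above that of all coding genes, at 7.65% to 19.9%.

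Sites seen in at least 2 libraries of the same protein were counted as reproducible. With IGF2BP1, 21 of the 39 genes had such an exonic site (53.8%, against 16.0% of coding genes), and with IGF2BP3 22 genes (56.4% against 14.2%). IGF2BP2 gave 12 genes (30.8% against 5.91%), METTL1 8 (20.5% against 2.89%) and WDR4 6 (15.4% against 3.31%). In total 24 genes had a reproducible site with an IGF2BP protein and 9 with METTL1 or WDR4. The genes common to both were SCD, FASN, FADS1, FADS2, SC5D, MSMO1, SREBF2 and LRP1, and MVK was the only gene with a reproducible site for a writer protein and none for a reader. SCD, FADS1, FADS2, SC5D and LRP1 had reproducible sites with all 5 proteins. For these combined sets the shares over all coding genes are not given here, so the counts describe the 39 genes alone. IGF2BP3 had 4 libraries in which a site could be seen again and the other proteins had 2. Without the bio2 libraries, IGF2BP3 had 17 such genes, below the 21 of IGF2BP1. When all libraries were thinned at random to 4581 clusters, the mean was 18.3 genes for IGF2BP3, 8.70 for IGF2BP2, 5.60 for IGF2BP1, 3.55 for METTL1 and 2.55 for WDR4. Random thinning acts on each library separately, so shared sites of the largest libraries, those of IGF2BP1, are lost most often. IGF2BP2 replicate 1, the smallest library, loses no cluster, and IGF2BP3 was still counted over 4 libraries. The order after thinning thus follows in part from the procedure and does not rank the proteins.

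The individual genes follow in the order of the pathways, with exonic clusters given per library. Over 3768 coding genes with exonic clusters in at least 3 libraries, the number of exonic clusters of a gene per 1000 clusters of the library was compared between the 8 IGF2BP and the 4 METTL1 and WDR4 libraries. No gene passed the two-sided exact permutation test after Benjamini-Hochberg adjustment, whether among the 23 members tested or over all 3768, and the smallest p the design allows is 0.00202. At an unadjusted p of 0.05 or less there were 10 of the 23 members (43.5%) and 867 of the 3768 genes (23.0%). Values were higher in every IGF2BP library than in any METTL1 or WDR4 library for 3 members, SC5D, FDFT1 and ACSL4, against 6.18% of the genes tested. They were lower in every IGF2BP library for 0 members, against 0.372% of the genes tested. A gene could enter with clusters in IGF2BP libraries alone and could then differ in 1 direction only: this held for 6 of the 23 members (SCAP, STARD4, SOAT1, MTTP, ELOVL5 and ACSL4), or 26.1%, and 30.6% of all genes tested, and for 3 of the 10 members at an unadjusted p of 0.05 or less. No p-value is given for these 6. FDFT1 and ELOVL6 had exonic clusters in 1 METTL1 or WDR4 library each, and ABCA1 and SREBF2 in 2. Without their IGF2BP libraries these genes would not have entered, so their p-values describe the values and are no independent evidence. The 10 members became 5 without WDR4 replicate 1, 6 without METTL1 replicate 1 or WDR4 replicate 2, 6 with single-copy centres, 4 with clusters at or above the median width of their library and 2.65 after thinning. The 3 members higher in every IGF2BP library became 6 without IGF2BP2 replicate 1 or METTL1 replicate 2, 1 with single-copy centres or wide clusters, and 0.05 after thinning.

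**Figure D2:**
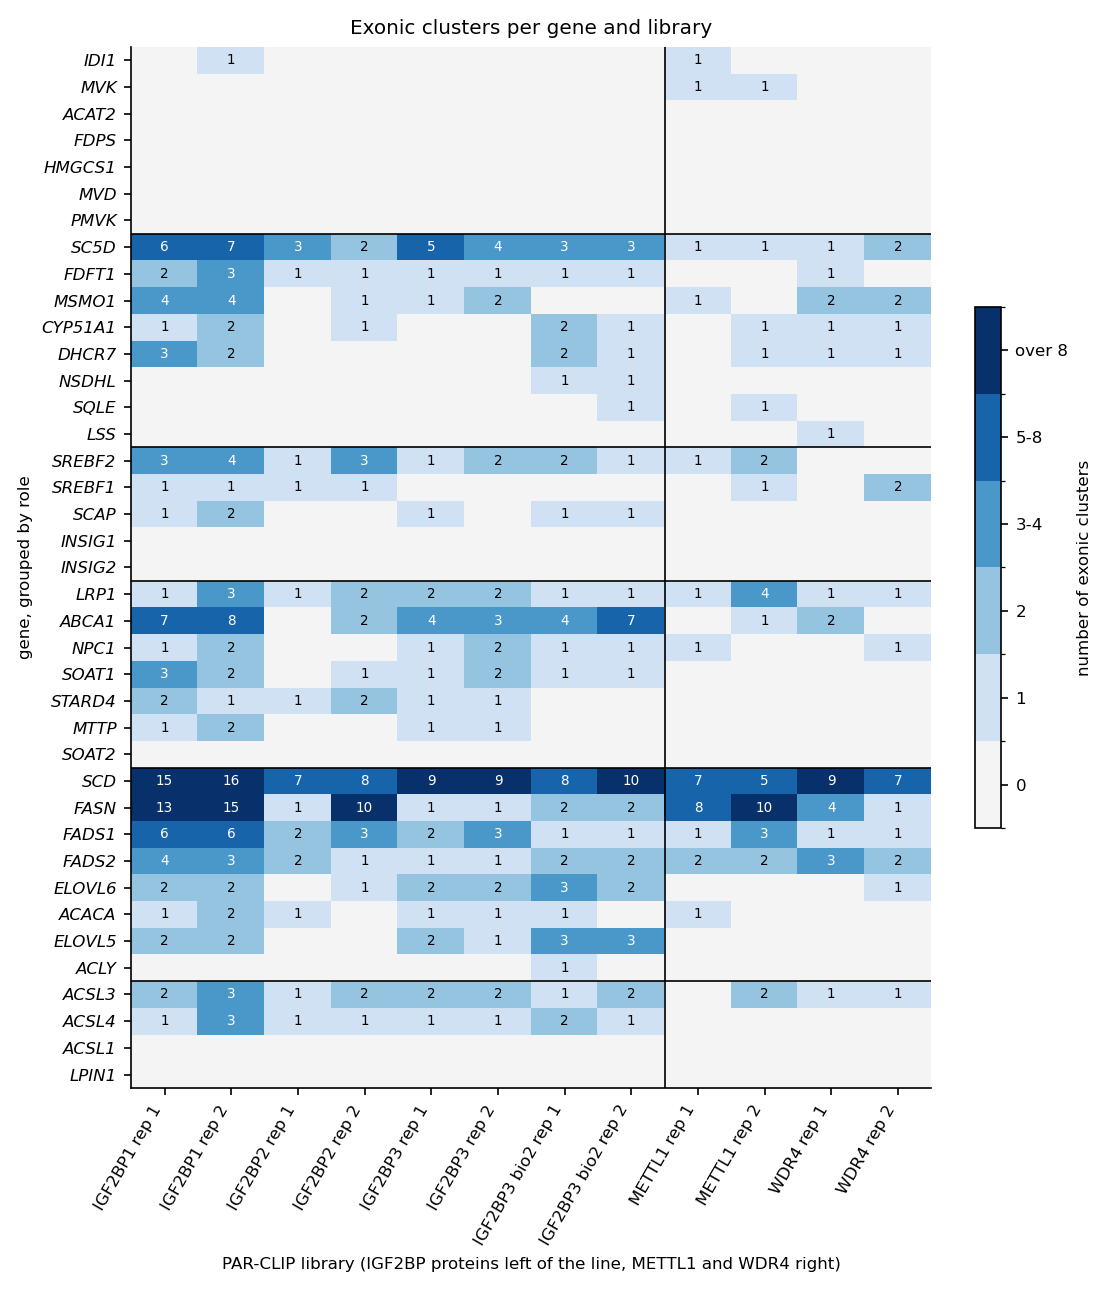
Each cell gives the number of exonic clusters of a gene (rows, grouped by role and divided by lines) in a PAR-CLIP library (columns, IGF2BP proteins left and METTL1 and WDR4 right of the vertical line), with empty cells at 0. SCD has 5 to 16 clusters in every library, ACSL4 has exonic clusters in the 8 IGF2BP libraries alone, and the mevalonate genes at the top are nearly empty.

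The mevalonate genes, which turn acetyl-CoA into the isoprenoid farnesyl diphosphate, carried few clusters. An exonic cluster was found on 2 of 7, with 4 exonic clusters in all. MVK, the mevalonate kinase, had 1 cluster in each METTL1 library and none elsewhere, at a shared 3′ UTR site (chr12:109597411-109597437). IDI1, the isopentenyl diphosphate isomerase, had 1 exonic cluster in IGF2BP1 replicate 2 and 1 in METTL1 replicate 1. ACAT2, the cytosolic thiolase that begins the pathway, had 5 intron clusters that formed 1 site in 5 libraries, whose central bases occur up to 32 times in the genome. FDPS, the farnesyl diphosphate synthase, had a single intron cluster. HMGCS1, PMVK and MVD had none, although the mRNA of HMGCS1, the hydroxymethylglutaryl-CoA synthase, is 5350 nt long. The mRNAs of PMVK, FDPS, ACAT2 and MVD are short, at 1002 nt to 1799 nt.

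From squalene to cholesterol, all 8 genes carried an exonic cluster, with 93 exonic clusters in all. SC5D, the sterol-C5-desaturase of the late pathway, had 38. Its exonic clusters numbered 6 and 7 in the IGF2BP1 libraries, 3 and 2 in IGF2BP2, 5 and 4 in IGF2BP3, 3 and 3 in the bio2 libraries, 1 and 1 in METTL1, and 1 and 2 in WDR4. Per 1000 clusters this was 0.513 ± 0.156 (SD, n = 8) with IGF2BP proteins and 0.147 ± 0.0514 (SD, n = 4) with METTL1 and WDR4. The groups did not overlap, yet the difference did not pass adjustment over 3768 genes (exact permutation p = 0.00202, adjusted p = 0.0511). Of the SC5D clusters, 31 lay in its 3′ UTR of 5898 nt. The writers' clusters in this gene included the C- and U-rich site in all 4 of their libraries. By contrast, 3 other sites in 6 IGF2BP libraries each, 1 of them in the coding sequence, were seen in no METTL1 or WDR4 library. Among these 3, the 3′ UTR site at chr11:121312697-121312802 held 9 clusters. For 4 of these 9 the central bases occur more than once in the genome, up to 5188 times, so their origin in SC5D is uncertain. Such repeated centres were found in 5 of the 38 exonic clusters of SC5D.

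FDFT1, the squalene synthase, carried 12 exonic clusters, all in the coding sequence, and 2 intron clusters, in METTL1 replicate 2 and WDR4 replicate 2. Of the exonic clusters there were 2 and 3 in the IGF2BP1 libraries and 1 in each of the other 6 IGF2BP libraries, against 1 in WDR4 replicate 1 and 0 in the other 3 writer libraries. The clusters per 1000 were 0.163 ± 0.0287 (SD, n = 8) and 0.0256 ± 0.0512 (SD, n = 4), again without overlap (exact permutation p = 0.00202, adjusted p = 0.0511). A single coding site appeared in 9 libraries, among them all 8 IGF2BP libraries.

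MSMO1, the methylsterol monooxygenase, had 17 exonic clusters in 8 libraries: 4 and 4 with IGF2BP1, 0 and 1 with IGF2BP2, 1 and 2 with IGF2BP3, 0 in both bio2 libraries, 1 and 0 with METTL1, and 2 and 2 with WDR4. Per 1000, the values were near each other, at 0.139 ± 0.128 (SD, n = 8) and 0.143 ± 0.0998 (SD, n = 4; exact permutation p = 0.956, adjusted p = 0.986). For 14 of these 17 clusters the central 20 nt occur more than once in the genome, so their origin in MSMO1 is uncertain.

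The remaining sterol enzymes had fewer clusters. CYP51A1, the lanosterol demethylase, had 10 exonic clusters in 8 libraries, and DHCR7, which makes cholesterol from its last precursor, had 11 in 7 libraries. CYP51A1 shares its locus with other coding gene models on the same strand, so its clusters may be counted for those too. NSDHL had 1 exonic cluster in each bio2 library and an intron site in 6 libraries (chrX:152859302-152859359). SQLE, the squalene epoxidase, had 2 exonic clusters and LSS, the lanosterol synthase, had 1.

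Among the SREBP control genes, 3 of 5 carried exonic clusters, 33 in all. SREBF2, the transcription factor that governs cholesterol synthesis, had 3 and 4 clusters in the IGF2BP1 libraries, 1 and 3 in IGF2BP2, 1 and 2 in IGF2BP3, 2 and 1 in the bio2 libraries, 1 and 2 in METTL1 and 0 in both WDR4 libraries. Per 1000 clusters these came to 0.251 ± 0.0823 (SD, n = 8) and 0.0956 ± 0.115 (SD, n = 4), and the groups overlapped (exact permutation p = 0.0263, adjusted p = 0.177). Its leading site lay in the coding sequence and was present in 10 libraries, missing only from WDR4. SREBF1, the related factor that governs fatty acid synthesis, had 7 exonic clusters in 6 libraries, and SCAP had 6 exonic clusters in 5 IGF2BP libraries, all in the coding sequence. INSIG1 had no cluster and INSIG2 had 3 intron clusters in 3 libraries.

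Of the genes of sterol transport, esterification and lipoproteins, 6 of 7 carried exonic clusters, 92 in all. LRP1, a large endocytic receptor that takes up lipoprotein remnants, had 1 and 3 clusters in the IGF2BP1 libraries, 1 and 2 in IGF2BP2, 2 and 2 in IGF2BP3, 1 and 1 in bio2, 1 and 4 in METTL1 and 1 and 1 in WDR4. Scaled per 1000, LRP1 had 0.209 ± 0.0804 (SD, n = 8) and 0.206 ± 0.172 (SD, n = 4), with no difference beyond the spread (exact permutation p = 0.964, adjusted p = 0.992). Of its 20 exonic clusters 12 lay in the 3′ UTR, which makes up 806 nt of an mRNA of 14923 nt.

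ABCA1, the pump that loads cholesterol onto apolipoprotein A-I, had 38 exonic clusters: 7 and 8 with IGF2BP1, 0 and 2 with IGF2BP2, 4 and 3 with IGF2BP3, 4 and 7 in the bio2 libraries, 0 and 1 with METTL1 and 2 and 0 with WDR4. The values per 1000 of 0.513 ± 0.333 (SD, n = 8) and 0.0801 ± 0.0994 (SD, n = 4) overlapped between groups, since IGF2BP2 replicate 1 had none (exact permutation p = 0.0323, adjusted p = 0.198). Its 3′ UTR of 3309 nt held 29 of the clusters, in 8 merged sites. NPC1, which exports cholesterol from lysosomes, had 10 exonic clusters in 8 libraries, 8 of them in the coding sequence. SOAT1, which esterifies cholesterol for storage, had 11 in 7 libraries, and the sterol carrier STARD4 had 8 in 6 libraries. MTTP, which loads lipid onto nascent lipoproteins, had 5 in 4 libraries. The exonic clusters of SOAT1, STARD4 and MTTP were all from IGF2BP libraries (SOAT1 also had 1 intron cluster in WDR4 replicate 1), while SOAT2, the hepatic and intestinal isoenzyme of SOAT1, had none.

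The fatty acid synthesis, elongation and desaturation genes carried the most, with exonic clusters on all 8 and 270 exonic clusters in all. SCD, the stearoyl-CoA desaturase that makes oleic acid, had 110, or 21.1% of the exonic clusters of the 39 genes. It had 15 and 16 in the IGF2BP1 libraries, 7 and 8 in IGF2BP2, 9 and 9 in IGF2BP3, 8 and 10 in the bio2 libraries, 7 and 5 in METTL1 and 9 and 7 in WDR4. Per 1000 clusters the values were 1.28 ± 0.238 (SD, n = 8) and 0.830 ± 0.207 (SD, n = 4), and the groups overlapped (exact permutation p = 0.0121, adjusted p = 0.132). Of the clusters, 73 lay in the 3′ UTR, 24 in the coding sequence and 13 in the 5′ UTR. SCD has a processed pseudogene on another chromosome, and the central 20 nt of 68 of the 110 clusters occur more than once in the genome, which leaves the origin of those reads uncertain.

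FASN, the fatty acid synthase, was bound mostly in its coding sequence and unevenly across libraries. Its 68 exonic clusters included 55 in the coding sequence, spread over 23 merged sites. By library there were 13 and 15 with IGF2BP1, 1 and 10 with IGF2BP2, 1 and 1 with IGF2BP3, 2 and 2 in the bio2 libraries, 8 and 10 with METTL1 and 4 and 1 with WDR4. The IGF2BP1 and METTL1 libraries and IGF2BP2 replicate 2 were high and the IGF2BP3 libraries low, so that the spread within a group, at 0.544 ± 0.454 per 1000 (SD, n = 8) and 0.721 ± 0.548 per 1000 (SD, n = 4), was larger than the difference between groups (exact permutation p = 0.560, adjusted p = 0.715). Only 3 of the 68 clusters had a multi-copy centre.

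The desaturases FADS1 and FADS2 start the making of long polyunsaturated fatty acids and lie on opposite strands of the same locus. FADS1 had 30 exonic clusters, 28 of them in the 3′ UTR: 6 and 6 with IGF2BP1, 2 and 3 with IGF2BP2, 2 and 3 with IGF2BP3, 1 and 1 in the bio2 libraries, 1 and 3 with METTL1 and 1 and 1 with WDR4. Scaled per 1000, this was 0.338 ± 0.117 (SD, n = 8) and 0.177 ± 0.115 (SD, n = 4; exact permutation p = 0.0525, adjusted p = 0.218). FADS2 had 25: 4 and 3, 2 and 1, and 1 and 1 in the IGF2BP1, IGF2BP2 and IGF2BP3 libraries, 2 and 2 in the bio2 libraries, 2 and 2 with METTL1 and 3 and 2 with WDR4. Here the groups were close, at 0.248 ± 0.109 (SD, n = 8) and 0.265 ± 0.0469 (SD, n = 4; exact permutation p = 0.778, adjusted p = 0.862). A second 3′ UTR site of FADS2 (chr11:61866978-61867016) was seen in METTL1 replicate 1 and both WDR4 libraries and in no IGF2BP library.

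ELOVL6, the elongase that makes stearate from palmitate, had 15 exonic clusters, all in its 3′ UTR. There were 2 and 2 with IGF2BP1, 0 and 1 with IGF2BP2, 2 and 2 with IGF2BP3, 3 and 2 in the bio2 libraries and 1 in WDR4 replicate 2 alone among the writer libraries. The values per 1000 were 0.225 ± 0.150 (SD, n = 8) and 0.0272 ± 0.0543 (SD, n = 4; exact permutation p = 0.0364, adjusted p = 0.211). ELOVL5, which elongates polyunsaturated fatty acids, had 13 exonic clusters, all in the 6 IGF2BP1 and IGF2BP3 libraries, and 1 intron cluster in each WDR4 library. ACACA, the acetyl-CoA carboxylase, had 8 exonic clusters in 7 libraries, 7 of them in the 3′ UTR. ACLY, the ATP citrate lyase that supplies the acetyl-CoA, had 1 cluster, in a bio2 library.

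The acyl-CoA synthetases activate fatty acids for use, and 2 of the 3 isoenzymes listed carried exonic clusters. ACSL3 had 19 exonic clusters, with 2 and 3 in the IGF2BP1 libraries, 1 and 2 in IGF2BP2, 2 and 2 in IGF2BP3, 1 and 2 in bio2, 0 and 2 in METTL1 and 1 and 1 in WDR4. This gave 0.238 ± 0.0732 per 1000 (SD, n = 8) and 0.111 ± 0.0946 (SD, n = 4; exact permutation p = 0.0323, adjusted p = 0.198). ACSL4, which prefers arachidonic acid, had 11 exonic clusters, all in the 3′ UTR and all from IGF2BP libraries: 1 and 3, 1 and 1, 1 and 1, and 2 and 1 in IGF2BP1, IGF2BP2, IGF2BP3 and bio2. This gave 0.174 ± 0.0702 per 1000 (SD, n = 8) and 0 in all 4 writer libraries. One exonic site (chrX:109643545-109643583) was present in all 8 IGF2BP libraries and no other. In its introns ACSL4 had 23 clusters over all 12 libraries, including a site in 9 libraries (chrX:109707805-109707865). ACSL1 and LPIN1, a phosphatidate phosphatase of triglyceride synthesis, had no cluster.

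The next comparison was where in the transcripts the clusters lay. Over all libraries, 3′ UTRs of 24 genes held 315 of the 649 clusters, with 176 in coding sequence of 20 genes, 21 in 5′ UTRs, 10 in other exons and 127 in introns. In IGF2BP libraries the 3′ UTR held 55.1% ± 7.52 (SD, n = 8) of the clusters of these genes, ranging from 46.8% to 69.2%, and in METTL1 and WDR4 libraries 35.2% ± 3.73 (SD, n = 4), ranging from 31.9% to 40.0%. The groups did not overlap (exact permutation p = 0.00202 for the difference of 19.8 points, adjusted p = 0.00505). Introns held 12.8% ± 5.61 (SD, n = 8) and 35.5% ± 11.5 (SD, n = 4), again without overlap (difference -22.7 points, exact permutation p = 0.00202, adjusted p = 0.00505). All coding genes differed in the same way, with 52.8% ± 3.46 (SD, n = 8) and 29.0% ± 1.17 (SD, n = 4) in 3′ UTRs and 26.6% ± 4.06 (SD, n = 8) and 56.1% ± 4.75 (SD, n = 4) in introns. Among exonic clusters alone, the 3′ UTR share of the 39 genes was 63.2% ± 8.30 (SD, n = 8) against 55.9% ± 11.0 (SD, n = 4), and the gap of 7.37 points failed the exact permutation test (p = 0.232). When the 5 proteins took the place of the libraries, both differences reached p = 0.1 in the exact permutation test, the lowest value that 3 proteins against 2 allow.

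Against all coding genes, the 39 genes had a lower intron share in each of the 12 libraries and a higher coding sequence share in 11 of 12. Their 3′ UTR share and their 5′ UTR share were also higher in 9 of 12 libraries each. The regions share 1 total, so a lower intron share leaves more for the others. The coding sequence share was 28.4% ± 8.29 (SD, n = 8) against 17.3% ± 6.78 for all coding genes in IGF2BP libraries, and 22.1% ± 13.6 (SD, n = 4) against 9.14% ± 2.71 in METTL1 and WDR4 libraries. FASN supplied 55 of the 176 coding sequence clusters. Within the proteins, the share was highest in the bio2 libraries, with 42.6% and 34.8%, where all coding genes also had their highest values, with 28.1% and 26.9%. WDR4 replicate 2, with 2 coding sequence clusters among 44, was the library in which the 39 genes had the lower share. With 26 to 113 clusters in these genes per library, single shares are coarse: the 95% Wilson interval of the 3′ UTR share in IGF2BP2 replicate 1, for example, ran from 50.0% to 83.5% (counting error only).

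**Figure D3:**
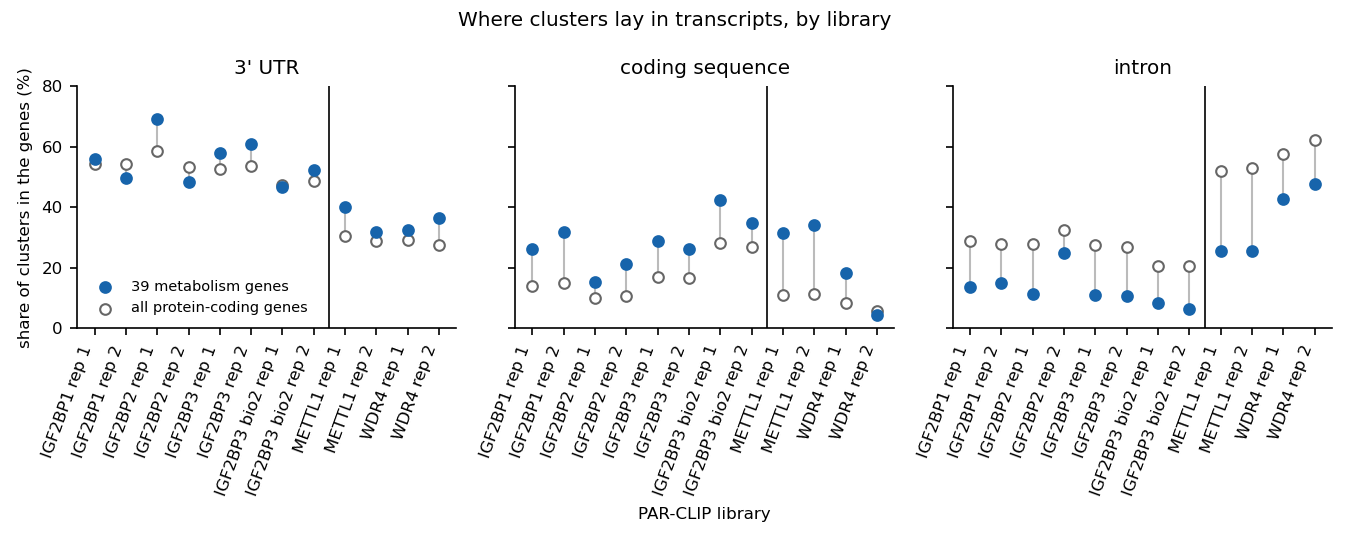
Points give the percentage of clusters in 3′ UTRs, coding sequence and introns for each PAR-CLIP library, filled for the 39 metabolism genes and open for all protein-coding genes, joined by a grey line, with IGF2BP libraries left and METTL1 and WDR4 libraries right of the vertical line. Filled intron points lie below the open ones in all 12 libraries, and 3′ UTR points of both kinds are lower for METTL1 and WDR4, at 27.5% to 40.0%, than for IGF2BP proteins, at 46.8% to 69.2%.

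Overlapping clusters of all libraries were then merged into sites. The 39 genes had 164 exonic sites, of which 39.6% were seen in 1 library, against 44.9% for all coding genes. Sites in at least 6 libraries numbered 34 (20.7% against 15.6%), 21 in 3′ UTRs, 12 in coding sequence and 1 in a 5′ UTR, and all 34 were present in both IGF2BP1 libraries, the largest of the series. How many such sites of all coding genes were in both IGF2BP1 libraries is not given here. SCD held 8 of them, SC5D 4, ABCA1 and FASN 3 each, and 13 other genes 1 or 2. Along the 3′ UTR, sites in at least 2 libraries had a median position of 0.404 of its length from the stop codon (59 sites, middle range 0.181 to 0.679).

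Some of the 34 sites fell into a few patterns, and the remaining sites had other mixtures of libraries. The SCD site in the 3′ UTR, 203 nt after the stop codon, was the only one in all 12 libraries (2.94% of the 34, near the 3.77% over all coding genes), and all of its clusters had a multi-copy centre. Sites of FADS1, FADS2, LRP1 and SC5D were present in the 10 libraries without the bio2 label and in neither bio2 library, 4 of 34 sites (11.8%) against 6.77% of the sites of all coding genes found in at least 6 libraries. Sites in no METTL1 or WDR4 library numbered 11 of 34, in ABCA1, ACSL4, ELOVL5, ELOVL6, SC5D, SCD and SOAT1, or 32.4% against a background of 34.3%. Of these, 7 were present in exactly the 6 IGF2BP1 and IGF2BP3 libraries (20.6% against 15.0%). They lay in the 3′ UTRs of ABCA1, ELOVL5, ELOVL6, SOAT1 and SC5D and in the coding sequence of SC5D and SCD. The share of 32.4% is near its background. A site of METTL1 and WDR4 alone could not be among the 34, since these proteins have 4 libraries.

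**Figure D4:**
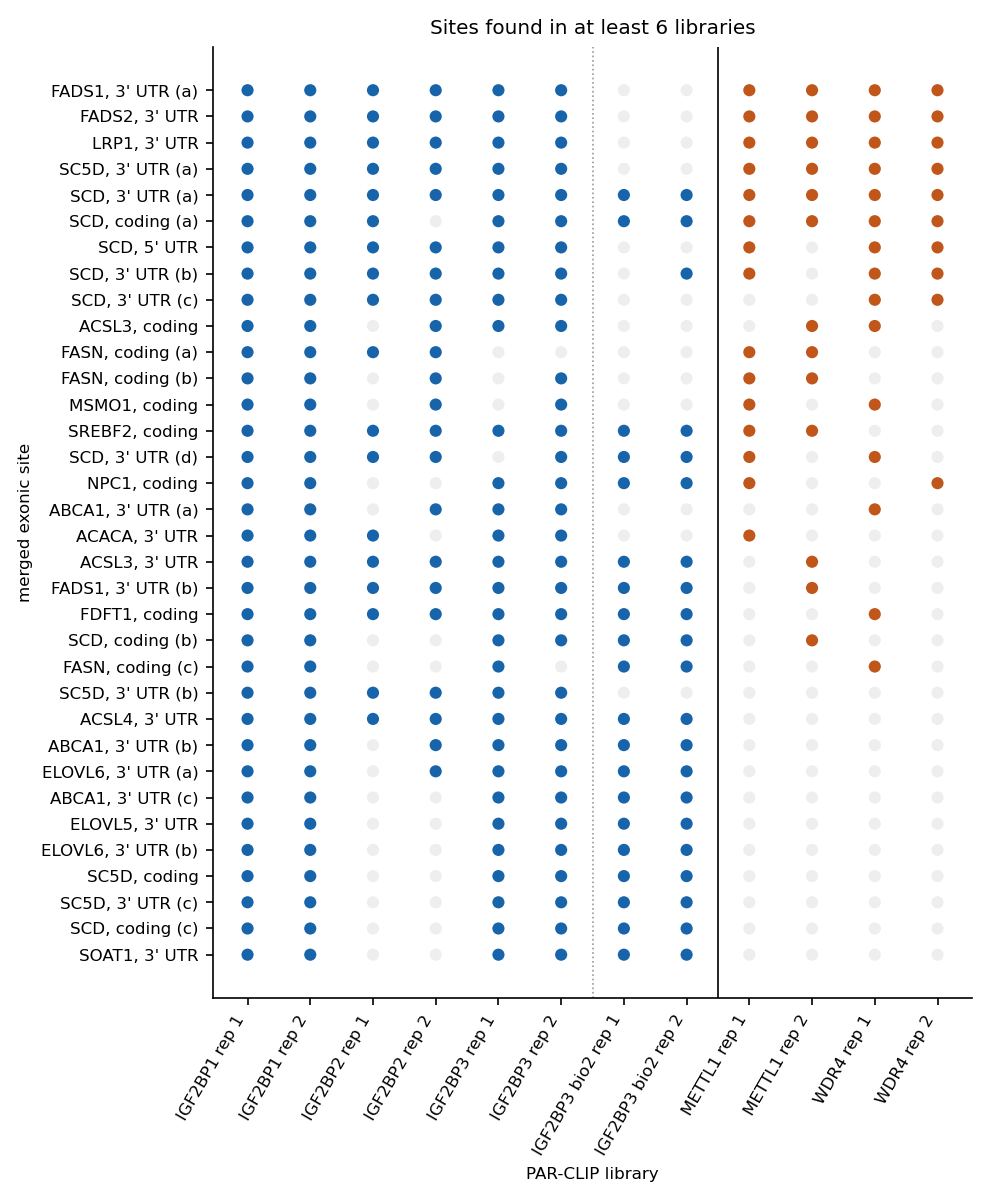
Each row is a merged exonic site found in at least 6 libraries and each column a PAR-CLIP library; a filled point (blue for IGF2BP, orange for METTL1 and WDR4) means that the library holds a cluster there, and letters tell sites of the same gene and region apart. All 34 rows are filled for both IGF2BP1 libraries, 4 of the top rows are filled everywhere except in the bio2 libraries, and the 11 rows at the bottom have no METTL1 or WDR4 cluster.

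Motif content was compared last. Exonic clusters of the 39 genes were widened by 10 nt on both sides and searched for CAU followed by A, C or U. The motif was present in 58.8% ± 13.7 (SD, n = 8) of the windows in IGF2BP libraries and 35.8% ± 12.6 (SD, n = 4) in METTL1 and WDR4 libraries, with ranges of 39.1% to 79.1% and 21.7% to 51.4%. The difference of 23.0 points passed the exact permutation test (p = 0.0242, adjusted p = 0.0303 over 5 tests). It kept its direction but no longer passed without METTL1 replicate 1 (21.4 points, p = 0.0545), without WDR4 replicate 2 (18.3 points, p = 0.0848) or without the bio2 libraries (17.1 points, p = 0.0619; all exact permutation tests). These settings leave 165, 165 and 210 splits in place of 495. Among clusters at or above the median width of their library the difference was 0.846 points (exact permutation p = 0.925). Over all coding genes the share was 65.6% ± 10.6 (SD, n = 8) and 43.1% ± 3.07 (SD, n = 4).

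By protein, the mean share was highest in the bio2 libraries, at 76.7% for the 39 genes and 78.1% for all coding genes. It was 63.0% against 71.2% with IGF2BP3, 51.0% against 60.9% with IGF2BP1, 44.6% against 52.1% with IGF2BP2, 41.1% against 40.8% with METTL1 and 30.5% against 45.4% with WDR4. The value of the 39 genes lay below that of all coding genes in 10 of the 12 libraries. Among the sites in at least 6 libraries, 9 of the 11 without a METTL1 or WDR4 cluster held the motif (81.8%, against 82.5% over all coding genes). Of these 11, the 7 in exactly the 6 IGF2BP1 and IGF2BP3 libraries held it in 5 (71.4% against 88.6%). Of the 4 present everywhere but in bio2, 3 held it (75.0% against 62.1%). In these last 4 windows G made up 9.92% of the bases, against 16.6% in the same class over all coding genes. The G share was 11.996% against 11.624% for the 11 sites, and 10.676% against 12.005% for the 7 sites.

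Other genes of the same pathways were counted too. Of 22 other sterol genes, 11 had an exonic cluster (50.0%, against 31.0% of all coding genes), among them LBR of the late sterol pathway and MBTPS1 and MBTPS2, the proteases that release SREBP. Of 30 other fatty acid genes, 17 had one (56.7%), among them ELOVL2, DGAT2, GPAM and MLXIPL. A reproducible IGF2BP1 site was found in 7 of the 22 and 10 of the 30 genes, a reproducible IGF2BP3 site in 5 and 9, and a reproducible METTL1 site in 2 and 1. These lists were drawn up with earlier results of these data known and were not compared by a test.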

How the data were processed

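PAR-CLIP was made in HepG2 for IGF2BP1, IGF2BP2, IGF2BP3, METTL1 and WDR4. By the account in the methods, the authors removed poor reads and adapters, merged identical reads, kept those longer than 15 nt, mapped them with Bowtie (up to 3 mismatches and 10 places) and called clusters with PARalyzer. The submitters' processing notes give hg38. Versions and PARalyzer settings are not given in the sources used here. What the authors deposited is neither a count nor a score but some other unit, the start and end of every cluster called in a library. Reads with up to 10 places were kept, so near-identical copies can share clusters.

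From these intervals, read as 1-based, gene and region were assigned by the midpoint on GENCODE release 44, with coding sequence before 3′ UTR, 5′ UTR, other exon and intron. The 8 and 4 libraries were compared by exact permutation (two-sided, 495 splits), with a threshold of 0.05 and Benjamini-Hochberg adjustment over 5 tests or over 3768 genes (Python 3.11.15, numpy 2.4.6, scipy 1.17.1, pandas 2.3.3). Reproducible sites overlapped by at least 1 nt. The members and lists were chosen with earlier results of these data known. Genes given by library were the 12 with exonic clusters in the most libraries (ties by number of clusters), with the site in the most libraries of each. Code was tested on simulated data. Alternatives left out libraries or changed the unit, annotation order, transcripts, overlap, copy number, width or cluster number. Replicate numbers did not pair the libraries: over 15 pairs of groups, the correlation of replicate differences across 3768 genes lay between -0.0511 and 0.0504.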

Additional observations from a re-analysis of the deposited data

Results flagged for a closer look

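Of 34 groups of values examined (the 5 library measures and the 12 genes given by library, each over the 8 IGF2BP and the 4 METTL1 and WDR4 libraries), 4 held a library far from the others, where chance gives about 1 in 20 groups. The intron share of the clusters in the 39 genes was 25.0% in IGF2BP2 replicate 2, against at most 15.0% in the other IGF2BP libraries. LRP1 had 0.463 exonic clusters per 1000 in METTL1 replicate 2, against at most 0.151 in the other METTL1 and WDR4 libraries. ELOVL6, with 0.109 per 1000 in WDR4 replicate 2, and FDFT1, with 0.102 per 1000 in WDR4 replicate 1, had a single exonic cluster in that library and none in the other 3. In such a group the gap is the whole range by construction, so the rate of 1 in 20 does not apply to these 2 genes.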

How the results depend on the processing

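The 3′ UTR and intron differences between IGF2BP and METTL1 and WDR4 libraries kept their direction in all alternatives, and passed the threshold in all but the protein as the unit (20.03 and -21.5 points, exact permutation p = 0.1) and, for the 3′ UTR share, exonic clusters alone (7.37 points). Leaving out 1 library gave 17.8 to 21.4 points and -26.0 to -18.6 points. The difference in the share of coding-gene clusters no longer passed with the protein as the unit (0.142 points), with single-copy centres (0.0904), with clusters at or above the median width (0.107) and without the SCD clusters (0.136), and was 0.132 to 0.170 without 1 library. The motif difference no longer passed without the bio2 libraries (17.1 points), with the protein as the unit (19.4 points) or with clusters at or above the median width (0.846 points), and was 18.3 to 28.2 points without 1 library (exact permutation p from 0.0121 to 0.0848). The difference between the groups' ratios of carrying genes did not pass under any setting, ranged from 0.0128 to 0.245 without 1 library and turned with 1 canonical transcript per gene (-0.0834), single-copy centres (-0.201) and clusters at or above the median width (-0.268); the cause was not tested.

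The count of 3 members higher in every IGF2BP library was 3 to 6 without 1 library (6 without IGF2BP2 replicate 1 or METTL1 replicate 2), 1 with single-copy centres or with wide clusters, and 0.05 on average after thinning. The 10 members at an unadjusted p of 0.05 or less became 5 to 11 without 1 library (5 without WDR4 replicate 1, 6 without METTL1 replicate 1 or WDR4 replicate 2), 6 with single-copy centres, 4 with wide clusters and 2.65 after thinning, and 0 passed adjustment under any setting. Members with a reproducible site fell from 21 to 11 with wide clusters for IGF2BP1 and to 5.60 after thinning, from 12 to 3 with wide clusters for IGF2BP2, from 22 to 14 with wide clusters and 13 with a site in all 4 libraries for IGF2BP3 (19 to 22 without 1 library), from 8 to 4 with wide clusters and 3.55 after thinning for METTL1, and from 6 to 2.55 after thinning for WDR4. Thinning and the width limit leave fewer clusters by construction. The alternatives without SCD and with exonic clusters alone were chosen after seeing the data.

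With labels permuted within replicate number (the replicate block), the differences stay as they are by construction (0.151 points for the share of coding-gene clusters, for example), and the exact permutation p was 0.0178 for that share, 0.676 for the carrying ratio, 0.00444 for the 3′ UTR and intron shares and 0.0356 for the motif, so the block changed no call of these 5. The correlations of replicate differences gave no pairing of the libraries by number. The main limits are the unknown depth of each cluster, 26 to 113 clusters in these genes per library, the lack of an input library and RNA levels, and reads that map to several places.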

Other observations

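The share of sites found again in the other replicate was counted in these genes and over all coding genes. Merged exonic sites of IGF2BP1 replicate 1 in the 39 genes were found again in replicate 2 for 82.1% (79.2% over all coding genes), and for IGF2BP3 the value was 82.5% (79.9%). It was 85.7% (73.4%) for IGF2BP2, 76.7% (67.3%) for the bio2 libraries, 52.0% (36.1%) for METTL1 and 40.7% (31.6%) for WDR4. In the other direction, sites of replicate 2 found again in replicate 1 made up 68.1% (71.8%) for IGF2BP1, 80.5% (76.1%) for IGF2BP3, 43.9% (47.7%) for IGF2BP2, 76.7% (73.5%) for bio2, 37.1% (27.4%) for METTL1 and 50.0% (39.8%) for WDR4. The 39 genes lay above all coding genes in both directions for 4 of the 6 pairs of libraries, and in 1 direction for IGF2BP1 and IGF2BP2. By construction, the library with fewer sites gives the higher share. The METTL1 and WDR4 pairs shared 13 and 11 sites in these genes, against 18 for IGF2BP2, 33 for IGF2BP3, 33 for bio2 and 64 for IGF2BP1, the pair with the most clusters.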
